A study of Mus musculus with 10 samples.

Results

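The 10 genes described here encode the Polycomb machinery and the enzymes that reverse its histone methylation mark: Ezh1, Ezh2, Eed, Suz12, Jarid2, Rnf2, Bmi1, Cbx7, Kdm6a and Kdm6b. They were chosen by gene symbol among the 50600 genes in the processed data, and all 10 were found. Messenger RNA was sequenced from mouse embryonic fibroblasts (MEFs) in the course of reprogramming towards induced pluripotent stem cells. The MEFs came from E13.5 embryos of CBA/CaJ X C57BL/6J mice. Every culture was transduced by retrovirus with Oct4, Klf4 and Sox2 (OKS) and grown in iCD1 medium. The control arm also received the red fluorescent protein DsRed (OKS + DsRed), and the other arm received the forkhead factor FoxO6 (OKS + FoxO6). Cells were harvested on days 0, 1, 3, 5 and 7. Each day of each arm was a single library, which made 10 libraries in all. Per the study's methods the MEFs carried an Oct4-GFP reporter, were used at passage 3 and were infected with virus from PlatE packaging cells, and no sorting of transduced or reprogrammed cells is mentioned. The comparison asks how FoxO6 acts on OKS reprogramming.

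Polycomb repressive complex 2 (PRC2) places methyl groups on lysine 27 of histone H3, and its trimethylated form marks silenced developmental genes. Polycomb repressive complex 1 (PRC1) attaches ubiquitin to histone H2A and, through its CBX subunits, can bind the PRC2 mark. Kdm6a (also called Utx) and Kdm6b (Jmjd3) are demethylases that remove the mark. PRC2 is known to be dispensable for the self-renewal of mouse embryonic stem cells but needed for their differentiation, and PRC1 with Bmi1 holds the Cdkn2a locus silent in cultured fibroblasts.

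Libraries were shallow, with 1208379 to 2225750 expected counts assigned to genes (the shallowest was OKS + DsRed day 0), and a single member had between 10 and 382 reads in a library. Foxo6 was listed at 0.61 to 2.29 TPM, the length-normalised transcript abundance, in the 5 OKS + DsRed libraries and at 762 to 1356 TPM in the 5 OKS + FoxO6 libraries, day 0 included. The summed TPM of 8 fibroblast markers was 7534 on day 0 and 2295 on day 7 in OKS + DsRed, and 6398 and 2468 in OKS + FoxO6. The sum of 5 pluripotency markers went from 5.55 to 287 TPM in OKS + DsRed and from 0.71 to 49.2 TPM in OKS + FoxO6. Of the macrophage markers, Ptprc, Adgre1 and Csf1r never had more than 3 reads, whereas Cd68 averaged 26.0 TPM. Of the endothelial markers, Pecam1, Cdh5 and Emcn averaged 1.15 TPM or less, whereas Tek averaged 52.6 TPM and was higher in OKS + FoxO6 over the days (0.96 ± 0.13, log2, SE, adjusted p = 0.0012, edgeR). Of the 8 fibroblast markers, 2 were called higher (Pdgfra and Postn) and 1 lower (Col3a1) in OKS + FoxO6, when 6.63% and 6.89% of all genes were. The part of these markers in the differences below was not tested. In whole cultures of this kind, fewer cells of a type and less RNA per cell cannot be told apart.

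The promoter sequences of 3 members are shown: Jarid2, the member called between the arms, Suz12, the member most like it over the libraries, and Ezh1, which held a forkhead core. Each sequence is the 250 bases before a RefSeq transcription start in build GRCm38.p6, read 5′ to 3′ on the gene's own strand. Capitals mark a match to an E2F motif (TTTCCCGC, TTTGGCGC or TTTCGCGC) or to a forkhead core (TAAACA), searched on both strands. None of the printed bases lies in an exon of the gene in GENCODE M21.
Jarid2 (chr13:44730524-44730773, + strand): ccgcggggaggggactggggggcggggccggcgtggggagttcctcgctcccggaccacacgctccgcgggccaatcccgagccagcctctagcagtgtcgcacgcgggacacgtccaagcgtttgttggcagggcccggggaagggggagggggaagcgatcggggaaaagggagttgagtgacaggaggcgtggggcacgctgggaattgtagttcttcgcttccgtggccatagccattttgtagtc
Suz12 (chr11:79992856-79993105, + strand): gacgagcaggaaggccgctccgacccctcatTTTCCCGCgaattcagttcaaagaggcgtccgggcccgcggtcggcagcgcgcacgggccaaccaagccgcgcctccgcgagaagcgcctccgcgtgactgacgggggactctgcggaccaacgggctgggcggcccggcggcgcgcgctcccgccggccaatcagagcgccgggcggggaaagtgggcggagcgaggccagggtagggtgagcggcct
Ezh1 (chr11:101226464-101226713, - strand): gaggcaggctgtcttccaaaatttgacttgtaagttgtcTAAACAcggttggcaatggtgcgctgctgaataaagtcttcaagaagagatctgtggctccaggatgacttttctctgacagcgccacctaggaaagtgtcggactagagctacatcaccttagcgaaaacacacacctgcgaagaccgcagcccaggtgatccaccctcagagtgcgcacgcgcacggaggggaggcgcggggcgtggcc
The Suz12 and Ezh1 windows end just before the first base of the annotated genes (GRCm38 chromosome 11, 79993106 to 80034123 and 101191115 to 101226463). The Jarid2 window lies inside its gene (chromosome 13, 44729474 to 44921643), in an intron, downstream of an earlier GENCODE start. Suz12 held an E2F match starting 219 bases before the start site, and 1.53% of the 32851 promoter windows in the table held one. Ezh1 held a forkhead core 211 bases before its start, and the window of Eed, not printed because it overlaps an exon, held one at 149 bases. That core occurred in 12.0% of all promoter windows, so it is a common sequence. The windows of Jarid2 (both of its entries), Rnf2, Bmi1, Ezh2, Cbx7 and Kdm6a held neither motif. Promoters of 9 members were in the table, and Kdm6b was not. These matches describe letters in the reference and say nothing of binding in these cells.

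Compared per length in TPM, most members were expressed at moderate levels, and Cbx7 stood lowest. The mean over all 10 libraries, with both arms and all days pooled, was 67.4 ± 23.0 TPM for Rnf2, 62.7 ± 9.52 for Ezh2 and 62.0 ± 20.4 for Suz12 (SD, n = 10). Rnf2 was above Ezh2 in 4 of 10 libraries and Ezh2 above Suz12 in 5 of 10, so these 3 neighbours in the order did not differ beyond their spread. Next came Kdm6b at 45.0 ± 12.9, Bmi1 at 43.2 ± 12.4 and Eed at 42.1 ± 8.42 TPM (SD, n = 10). Suz12 was above Kdm6b in 10 of 10 libraries, whereas Kdm6b was above Bmi1 in 7 of 10 and Bmi1 above Eed in 5 of 10. The lower levels were those of Ezh1 at 34.7 ± 7.22, Jarid2 at 28.1 ± 21.8, Kdm6a at 27.1 ± 7.22 and Cbx7 at 7.95 ± 4.94 TPM (SD, n = 10). Jarid2 was above Kdm6a in 4 of 10 libraries only, so their order by mean does not hold in most libraries, whereas Kdm6a was above Cbx7 in every one of the 10. Jarid2 varied the most over the libraries, with a coefficient of variation of 77.6%, and Ezh2 the least, with 15.2%.

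The TPM of a gene depends on its effective length, which RSEM weighs by the isoforms it assigns in each library. That length differed between libraries by 3.46-fold for Cbx7, 2.09-fold for Rnf2 and 1.82-fold for Bmi1, but only by 1.10-fold for Suz12, and it was nearly constant for Kdm6b. Differences between libraries are therefore given below in CPM, that is, reads scaled by library size after TMM normalization and not divided by length. Each ratio of CPM has an exact 95% interval from the read counts, which covers counting error only and not the spread between cultures. TPM is given beside it for the main cases in which the scales differ.

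**Figure D1:**
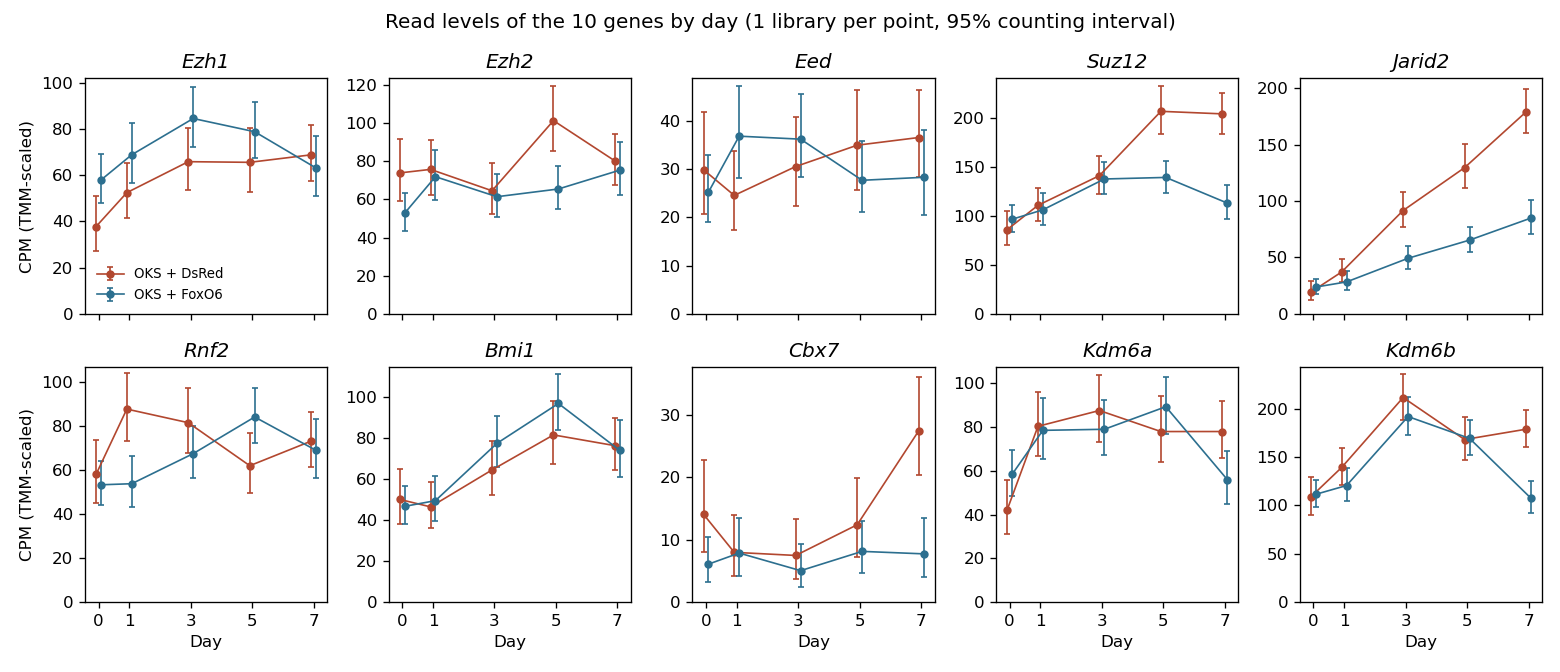
CPM of each of the 10 genes (vertical axis, starting at 0) by day (horizontal axis) in OKS + DsRed (red) and OKS + FoxO6 (blue). Each point is 1 library with its exact 95% counting interval. Jarid2 is higher on each successive day in both arms, and the arms are apart from day 3, and Suz12, Cbx7 and Kdm6b are higher in OKS + DsRed on day 7.

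Among the catalytic subunits of PRC2, Ezh1 tended towards higher and Ezh2 towards lower levels in OKS + FoxO6, but neither passed the test. Ezh2, the main H3K27 methyltransferase of dividing cells, had 73.8, 75.7, 64.5, 101 and 80.1 CPM on days 0, 1, 3, 5 and 7 in OKS + DsRed. In OKS + FoxO6 it had 52.8, 71.8, 61.4, 65.4 and 75.3 CPM on the same days. It was lower in OKS + FoxO6 on 5 of 5 days, with counting intervals below 1 on day 0 (ratio 0.715, 0.534 to 0.960) and day 5 (0.646, 0.507 to 0.824). Over the 5 days the arm difference was -0.27 ± 0.14 on the log2 scale (SE, adjusted p = 0.240, edgeR quasi-likelihood F-test). Between day 0 and day 7 Ezh2 differed by 0.32 ± 0.22 (SE, adjusted p = 0.357, edgeR). Its TPM on day 1 and day 7 was marginally higher in OKS + FoxO6, 65.0 against 60.1 and 72.3 against 68.7.

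Ezh1, the paralogue that prevails in non-dividing cells, had 37.8, 52.4, 65.8, 65.5 and 68.8 CPM in OKS + DsRed and 57.9, 68.8, 84.5, 78.8 and 63.1 CPM in OKS + FoxO6. It was higher in OKS + FoxO6 on 4 of 5 days, most on day 0 (ratio 1.53, 1.08 to 2.22), and not on day 7 (0.917, 0.697 to 1.20). The arm difference over the days was 0.29 ± 0.14 (log2, SE, adjusted p = 0.211, edgeR). The number of Ezh1 reads per Ezh2 read within a library needs no scaling by library size, but it is not divided by effective length. It was 0.512, 0.693, 1.02, 0.647 and 0.859 in OKS + DsRed and 1.10, 0.958, 1.38, 1.20 and 0.838 in OKS + FoxO6 on days 0, 1, 3, 5 and 7. The counting intervals of the arms did not overlap on day 0 (0.346 to 0.748 against 0.844 to 1.43) and day 5 (0.491 to 0.850 against 0.954 to 1.52). Over the 5 days the log2 ratio was 0.57 ± 0.44 higher in OKS + FoxO6 (mean of the paired differences, SD, n = 5; higher on 4 of 5 days). An exact two-sided permutation test that flips the sign of each day gave p = 0.125, and 5 pairs cannot go below 0.0625. The test treats the days as independent pairs, and whether they came from separate cultures is not known. In TPM, which divides by length, Ezh1 stood below Ezh2 in every library. The TPM ratio ran from 0.33 (OKS + DsRed day 0) to 0.976 (OKS + FoxO6 day 3). On day 1 it was nearly level, 0.518 in OKS + DsRed against 0.535 in OKS + FoxO6.

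**Figure D2:**
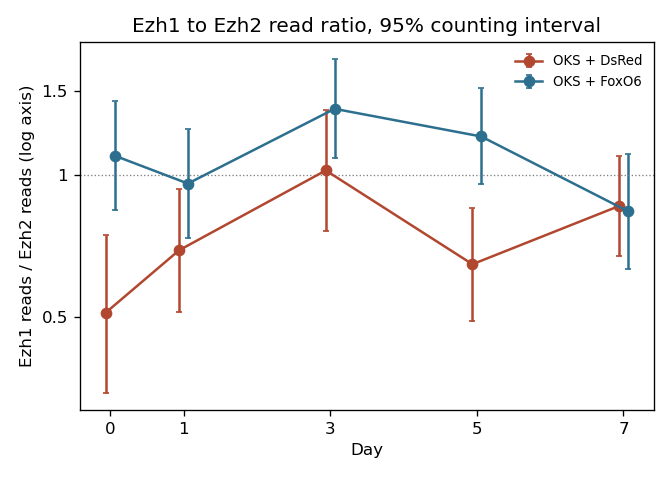
Ezh1 reads per Ezh2 read (vertical axis, logarithmic) by day (horizontal axis) in both arms, 1 library per point with an exact 95% counting interval. Reads are not divided by effective length, so a value of 1 is not equal TPM. OKS + FoxO6 lies above OKS + DsRed on days 0, 1, 3 and 5, and the arms meet on day 7 at 0.838 and 0.859.

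The genes whose log2 CPM followed Ezh2 most closely over the 10 libraries were Cdc25c (r = 0.92), a phosphatase that opens mitosis, Ttk (r = 0.91), a kinase of the spindle checkpoint, and Hdac1 (r = 0.90), a histone deacetylase. These correlations are descriptions over libraries that share days and arms. Of the 8 proliferation markers, 6 were lower in OKS + FoxO6 by the edgeR test over the days (Mki67, Top2a, Ccna2, Ccnb1, Mcm2 and Mcm5), when 6.89% of all genes were, and Cdk1 and Pcna did not pass. Their summed level ranged from 1028 to 1466 TPM in OKS + DsRed and from 712 to 1020 TPM in OKS + FoxO6, and its part in the Ezh2 values was not tested.

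Of the scaffold subunits, neither Eed nor Suz12 passed the arm test, the day 7 against day 0 test or the trend in the edgeR fits with the filter on low counts. Eed, which reads the trimethyl mark and stimulates the enzyme, had only 34 to 72 reads in a library. Its level was 29.9, 24.6, 30.5, 35.0 and 36.5 CPM in OKS + DsRed and 25.2, 36.8, 36.2, 27.7 and 28.3 CPM in OKS + FoxO6, the arms overlapped, and every daily interval included 1. On day 7 its TPM was 41.5 against 44.1, on 68 against 44 reads with effective lengths of 1683 and 1113 bases. Eed differed by -0.02 ± 0.19 between the arms and by 0.25 ± 0.30 between day 0 and day 7 (log2, SE, adjusted p = 0.957 and 0.616, edgeR). Suz12, without which the complex falls apart, had 86.1, 111, 141, 207 and 204 CPM in OKS + DsRed. In OKS + FoxO6 it had 96.7, 106, 138, 139 and 113 CPM. The arms were level through day 3 and apart afterwards, with ratios of 0.674 (0.570 to 0.796) on day 5 and 0.554 (0.461 to 0.665) on day 7. Within OKS + DsRed, Suz12 on day 7 stood at 2.37 times its day 0 level (1.90 to 2.99), against 1.17 times (0.953 to 1.44) in OKS + FoxO6. Because its effective length was steady, TPM gave nearly the same picture, with 90.9 against 45.7 TPM on day 7.

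Over all libraries, the Suz12 arm difference was -0.28 ± 0.16 (log2, SE, adjusted p = 0.288, edgeR). The day 7 against day 0 difference was 0.74 ± 0.25 (log2, SE, adjusted p = 0.0568, edgeR), and without the filter on low counts its adjusted p was 0.0205, within a range of 0.0205 to 0.0907 over the alternatives. The arm difference moved by -0.14 ± 0.04 per day (log2, SE), with the smallest p among the members, but its adjusted p was 0.0981 (edgeR) and 0.0658 to 0.488 over the alternatives.

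Jarid2, the accessory subunit that recruits PRC2 to its targets in embryonic stem cells, had the largest change from day 0 to day 7 of the 10 members. Its level was 19.3, 37.2, 91.6, 130 and 179 CPM on days 0, 1, 3, 5 and 7 in OKS + DsRed, from 22 reads on day 0 to 333 on day 7. In OKS + FoxO6 it was 23.8, 28.4, 49.3, 65.4 and 84.9 CPM. By reads, Jarid2 was thus higher on each successive day in both arms, and on day 7 it was 9.26 times its day 0 level in OKS + DsRed (6.01 to 15.0) and 3.57 times in OKS + FoxO6 (2.56 to 5.03). The rise from day 0 to day 7 over both arms was 2.44 ± 0.31 (log2, SE, adjusted p = 2.6e-04, edgeR), and it was called under all 6 alternatives tried. The ratio of OKS + FoxO6 to OKS + DsRed was 1.23 (0.734 to 2.13) on day 0, 0.763 (0.507 to 1.15) on day 1, 0.538 (0.411 to 0.703) on day 3, 0.504 (0.401 to 0.634) on day 5 and 0.474 (0.385 to 0.582) on day 7. The arms thus could not be told apart on days 0 and 1 at this depth, and OKS + FoxO6 was lower on the 3 later days.

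Over the 5 days Jarid2 was lower in OKS + FoxO6 by -0.71 ± 0.19 (log2, SE, adjusted p = 0.0314, edgeR), and it was lower on 4 of 5 days. This was the only arm difference called among the 10 members, 1 of 10 lower, when 6.89% of the 12212 genes tested were called lower, and no member was called higher, when 6.63% of genes were. The direction held in every alternative, but the call was lost without day 1 (-0.77, adjusted p = 0.0516), day 3 (-0.65, 0.129), day 5 (-0.62, 0.151) or day 7 (-0.62, 0.0615), and kept without day 0 (-0.87, 0.00527). Adjusted p ranged from 0.0017 to 0.502 over all its alternatives, the highest in the fit without day as a factor. The widening of the difference with the day, -0.15 ± 0.05 per day (log2, SE), had an adjusted p of 0.159 (edgeR). The pluripotency marker sum, 287 against 49.2 TPM on day 7, and the epithelial marker sum, 608 against 132 TPM, were also lower in OKS + FoxO6, and their part in the Jarid2 difference was not tested.

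TPM drew a different start for Jarid2. On day 0 it was listed at 6.03 TPM in OKS + DsRed and 12.9 TPM in OKS + FoxO6, a ratio of 2.14 where the reads gave 1.23, with an effective length of 5648 bases in the first library and 3587 in the second. On day 7 the lengths stood the other way round, 4326 against 5970 bases, and TPM was 79.1 against 24.7. The TPM of Jarid2 in OKS + FoxO6 was 12.9, 11.8, 23.7, 25.0 and 24.7 on the 5 days, so on this scale it was not higher on each successive day. On day 7 it was 1.92 times as high as on day 0, where the reads gave 3.57 times.

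Of the PRC1 subunits, Rnf2 (Ring1b), the ubiquitin ligase that modifies H2A, showed no steady direction. Its level was 58.0, 87.6, 81.4, 61.9 and 73.1 CPM in OKS + DsRed and 53.2, 53.7, 67.4, 84.0 and 68.8 CPM in OKS + FoxO6. It was lower in OKS + FoxO6 on day 1 (ratio 0.613, 0.463 to 0.808) and higher on day 5 (1.36, 1.04 to 1.78). The difference over the days was -0.15 ± 0.16 (log2, SE, adjusted p = 0.624, edgeR). On day 3 its TPM was 111 against 44.6, past 2-fold, while the reads, 120 against 134, gave a CPM ratio of only 0.828 (0.642 to 1.07). The effective length in those libraries was 1476 and 3082 bases.

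Bmi1 (Pcgf4), the PRC1 subunit that represses Cdkn2a, was higher on day 7 than on day 0 in both arms. It had 50.1, 46.5, 64.5, 81.6 and 76.3 CPM in OKS + DsRed and 46.7, 49.5, 77.5, 96.9 and 74.0 CPM in OKS + FoxO6. On day 7 the level was 1.52 times that of day 0 in OKS + DsRed (1.11 to 2.11) and 1.58 times in OKS + FoxO6 (1.20 to 2.09). The rise over both arms was 0.65 ± 0.21 (log2, SE, adjusted p = 0.0455, edgeR), which lies just inside the threshold. It was called under 1 of 6 alternatives only, other size factors, and lost without the filter on low counts, with DESeq2 and when days 1, 3 or 5 were left out (adjusted p 0.0460 to 0.190 over the alternatives). On day 1 its TPM was 50.4 in OKS + DsRed and 30.7 in OKS + FoxO6, where the reads, 70 against 82, gave a CPM ratio of 1.06 (0.765 to 1.49), with effective lengths of 1837 and 3248 bases. Between the arms Bmi1 differed by 0.10 ± 0.13 (log2, SE, adjusted p = 0.688, edgeR), and every daily interval included 1.

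Cbx7, a chromodomain subunit that takes PRC1 to the trimethyl mark in embryonic stem cells, was the member with the fewest reads. There were 16, 12, 11, 17 and 51 reads in OKS + DsRed and 13, 13, 10, 17 and 12 in OKS + FoxO6. In CPM this was 14.1, 7.96, 7.47, 12.4 and 27.4 against 6.07, 7.85, 5.03, 8.12 and 7.72, so that OKS + DsRed day 7 stood above the other 9 libraries. The ratio on day 7 was 0.282 (0.137 to 0.536), the lowest of any member on any day, and that on day 0 was 0.432 (0.191 to 0.958). Over the 5 days Cbx7 differed by -0.89 ± 0.33 (log2, SE), lower in OKS + FoxO6 on 5 of 5 days, with adjusted p = 0.0985 (edgeR) and 0.0759 to 0.314 over the alternatives. Its TPM on day 3 went the other way, 3.59 against 8.45, with 11 against 10 reads and effective lengths of 4200 and 1214 bases.

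Neither demethylase was called between the arms. Kdm6a had 42.2, 80.3, 87.5, 77.9 and 77.9 CPM in OKS + DsRed and 58.4, 78.5, 79.0, 89.3 and 56.0 CPM in OKS + FoxO6. Its ratio was 1.38 (0.985 to 1.97) on day 0 and 0.718 (0.544 to 0.943) on day 7, the only daily interval without 1, and over the days it differed by -0.01 ± 0.15 (log2, SE, adjusted p = 0.980, edgeR). Kdm6b, whose effective length was steady, had 109, 139, 212, 168 and 179 CPM in OKS + DsRed. In OKS + FoxO6 it had 112, 121, 192, 170 and 108 CPM. Both arms peaked on day 3 and stood level through day 5, where the ratio was 1.01 (0.851 to 1.19). On day 7 the ratio was 0.600 (0.496 to 0.725), with 51.9 against 28.3 TPM. The arm difference of Kdm6b over the days was -0.21 ± 0.14 (log2, SE, adjusted p = 0.372, edgeR).

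Set side by side, the most members with a daily difference beyond counting error were found on day 7, when the most genes of the whole set were too. Past 2-fold in TPM + 1 were 1 of 10 members on day 0 (Cbx7, lower in OKS + FoxO6), when 17.0% of the 15011 genes with a mean of at least 1 TPM were, 0 of 10 on day 1, when 17.5% were, and 2 of 10 on day 3 (Rnf2 lower and Cbx7 higher), when 20.0% were. There were 0 of 10 on day 5, when 21.7% of genes were, and 2 of 10 on day 7 (Jarid2 and Cbx7, both lower), when 24.8% were. On no day was the share of members past 2-fold larger than that of all genes. By reads, neither of the day 3 differences reached 2-fold, and 0 of 10 members were past it that day, when 15.8% of genes were by CPM. The counting interval of the CPM ratio lay below 1 for 2 of 10 members on day 0 and above 1 for 1, when it did for 12.9% and 11.7% of the 15011 genes. On day 1 it lay below 1 for 1 member and above for 0 (11.8% and 11.0% of genes), and on day 3 likewise for 1 and 0 (14.3% and 13.7%). On day 5 it lay below 1 for 3 members and above for 1 (16.8% and 15.1% of genes). On day 7 it lay below 1 for 5 members, Suz12, Jarid2, Cbx7, Kdm6a and Kdm6b, and above for 0 (19.6% and 18.2% of genes). The width of these intervals depends on a gene's reads, and genes were not matched for them. All 10 CPM ratios were below 1 on day 7, with a median log2 difference of -0.41, and 50.9% of all genes were below 0 with a median of -0.01. By TPM, 7 of 10 were below 0. With 1 library per arm, this describes these 2 day 7 libraries and has no test.

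**Figure D3:**
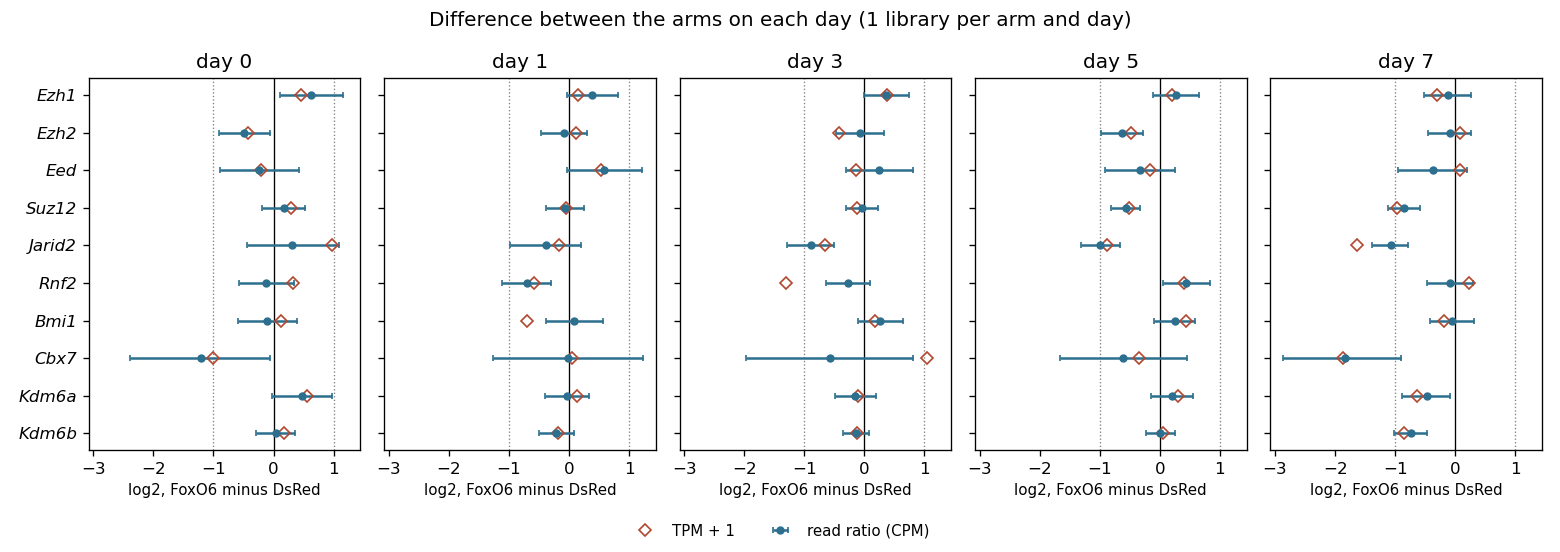
Difference between OKS + FoxO6 and OKS + DsRed for each gene (rows) on each day (panels), on the log2 scale (horizontal axis; dotted lines mark 2-fold). Filled points are ratios of CPM with exact 95% counting intervals and open diamonds are differences of log2(TPM + 1). On day 7 all 10 filled points lie left of 0, and on day 3 the diamonds of Rnf2 and Cbx7 lie far from the points of the reads.

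Over time, all 10 members had a fitted day 7 level above that of day 0, with a median of 0.44 (log2) beside 0.03 over all genes tested, of which 6367 of 12212 lay above 0. Within the arms, 10 of 10 CPM ratios of day 7 to day 0 were above 1 in OKS + DsRed and 8 of 10 in OKS + FoxO6, where Kdm6a (0.959) and Kdm6b (0.963) lay below. Only 2 of 10, Jarid2 and Bmi1, were called higher, when 11.7% of genes were, and 0 of 10 were called lower, when 10.1% were. The joint test of any day against day 0 called the same 2 members, when 20.0% of genes were called (adjusted p = 8.0e-04 for Jarid2 and 0.0222 for Bmi1, edgeR). In OKS + DsRed, 7 of 10 members had a ratio of day 7 to day 0 with a counting interval above 1, when 20.9% of the 15011 genes had. In OKS + FoxO6, 3 of 10 had (Ezh2, Jarid2 and Bmi1), when 24.0% of genes had. The difference between the arms in their course was tested by the arm by day trend. It called 0 of 10 members with edgeR, when 0.991% of genes were called with a rising and 0.614% with a falling difference. At an unadjusted p under 0.05 the edgeR trend had 2 of 10 members, Suz12 and Jarid2, when 18.0% of genes were. DESeq2 called 0 of the 9 members for which it gave an adjusted p (Cbx7 had none). Suz12 and Jarid2 were also the pair of members most alike over the 10 libraries (r = 0.91 of log2 CPM), and Eed and Rnf2 the least (r = -0.29), as a description of libraries that share days and arms.

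The wider Polycomb machinery comprised 43 further genes in 5 lists. In the arm test over the days, 1 of 43 was called higher and 1 lower, when 6.63% and 6.89% of all genes were, so neither count was above the share of all genes. Of 8 other PRC2 subunits, 1 was lower and 0 higher in OKS + FoxO6, with a median of -0.16 (log2) beside -0.02 over all genes. That gene was Epop (E130012A19Rik in the processed data), which links PRC2 to elongin and is abundant in embryonic stem cells. Its TPM was 30.2, 96.2, 172, 163 and 197 on days 0, 1, 3, 5 and 7 in OKS + DsRed and 16.1, 39.4, 76.1, 103 and 130 in OKS + FoxO6. Epop was lower on 5 of 5 days, by -0.91 ± 0.15 (log2, SE, adjusted p = 0.0031, edgeR), and rose by 2.89 ± 0.26 between day 0 and day 7 (adjusted p = 3.2e-05, edgeR). Its arm call was kept in 8 of 9 alternatives and lost only in the fit without day as a factor (-0.82, adjusted p = 0.536). Unlike Jarid2, Epop was already lower in OKS + FoxO6 on day 0, at 38.7 against 18.7 CPM for OKS + DsRed and OKS + FoxO6. Phf19, a Polycomb-like subunit that binds methylated H3K36, had the largest arm difference of the list, -1.07 ± 0.32 (log2, SE), without passing (adjusted p = 0.0524, edgeR), on 4 to 30 reads. Aebp2, which stabilises PRC2, rose by 0.77 ± 0.23 from day 0 to day 7 in the fit over both arms (log2, SE, adjusted p = 0.0375, edgeR). That call was kept in 3 of 6 alternatives and lost with DESeq2 (adjusted p = 0.0568) and without day 3 (0.0677) or day 5 (0.0524), within a range of 0.0154 to 0.0677. Between the arms Aebp2 differed by -0.48 ± 0.15 (log2, SE, adjusted p = 0.0530, edgeR), lower in OKS + FoxO6 on 5 of 5 days. It passed in 3 of 9 alternatives, with other size factors (0.0499), without the filter on low counts (0.0304) and without day 0 (0.0410), within a range of 0.0304 to 0.299. On the TPM scale Aebp2 went from 49.6 on day 0 to 178 on day 7 in OKS + DsRed, but from 77.0 to 61.6 in OKS + FoxO6. Those OKS + FoxO6 libraries had 190 and 177 Aebp2 reads of 2225750 and 1560854 expected counts, with effective lengths of 2236 and 3208 bases.

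Of 9 canonical PRC1 subunits, 0 were called between the arms by edgeR, with a median of 0.05, and Cbx2 had the largest difference, -0.49 ± 0.18 (log2, SE, adjusted p = 0.102). From day 0 to day 7, 8 of the 43 genes were called higher and 0 lower, when 11.7% and 10.1% of all genes were. Of the 9 canonical subunits 2 rose: Pcgf2 (Mel18), the close relative of Bmi1, by 1.08 ± 0.22, and the polyhomeotic subunit Phc1 by 0.92 ± 0.21 (log2, SE, adjusted p = 0.0055 and 0.0096, edgeR). The 13 variant PRC1 subunits had a median arm difference of -0.00. Of these, 1 was called higher in OKS + FoxO6 and 0 lower, when 6.63% and 6.89% of all genes were. That gene was Bcorl1, a corepressor related to Bcor, with 0.79 ± 0.20 (log2, SE, adjusted p = 0.0260, edgeR) and a higher level on 5 of 5 days. By TPM it was lower in OKS + FoxO6 on day 0, at 12.6 against 10.3 TPM for OKS + DsRed and OKS + FoxO6. Its call was lost without day 3 (adjusted p = 0.0866) or day 5 (0.108) and in the fit without day as a factor (0.349), and adjusted p ranged from 8.8e-05 to 0.349 over its alternatives. Wdr5, Auts2 and Bcor of this list rose from day 0 to day 7 by 1.08 ± 0.19, 1.03 ± 0.25 and 0.95 ± 0.21 (log2, SE, adjusted p = 0.0020, 0.0110 and 0.0085, edgeR). The call of Auts2 was lost with DESeq2 (adjusted p = 0.0520, within a range of 0.0089 to 0.0520 over its alternatives), and the other two were called in all 6.

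Of the 5 genes of the H2A deubiquitinase, which takes off the PRC1 mark, 0 were called between the arms and 0 over time, and the largest arm difference was that of Foxk1 (0.17 ± 0.21, adjusted p = 0.676, edgeR). Of the 8 genes of the KMT2C/D complex, in which Kdm6a works beside an H3K4 methyltransferase, 0 were called between the arms. The largest fitted difference was that of Pagr1a (0.64 ± 0.83, adjusted p = 0.683, edgeR), whose reads ranged from 0 to 64. Dpy30, a core subunit of H3K4 methyltransferases, rose by 1.91 ± 0.33 from day 0 to day 7 (log2, SE, adjusted p = 0.0020, edgeR). The arm by day trend called 0 of these 43 genes.

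**Figure D4:**
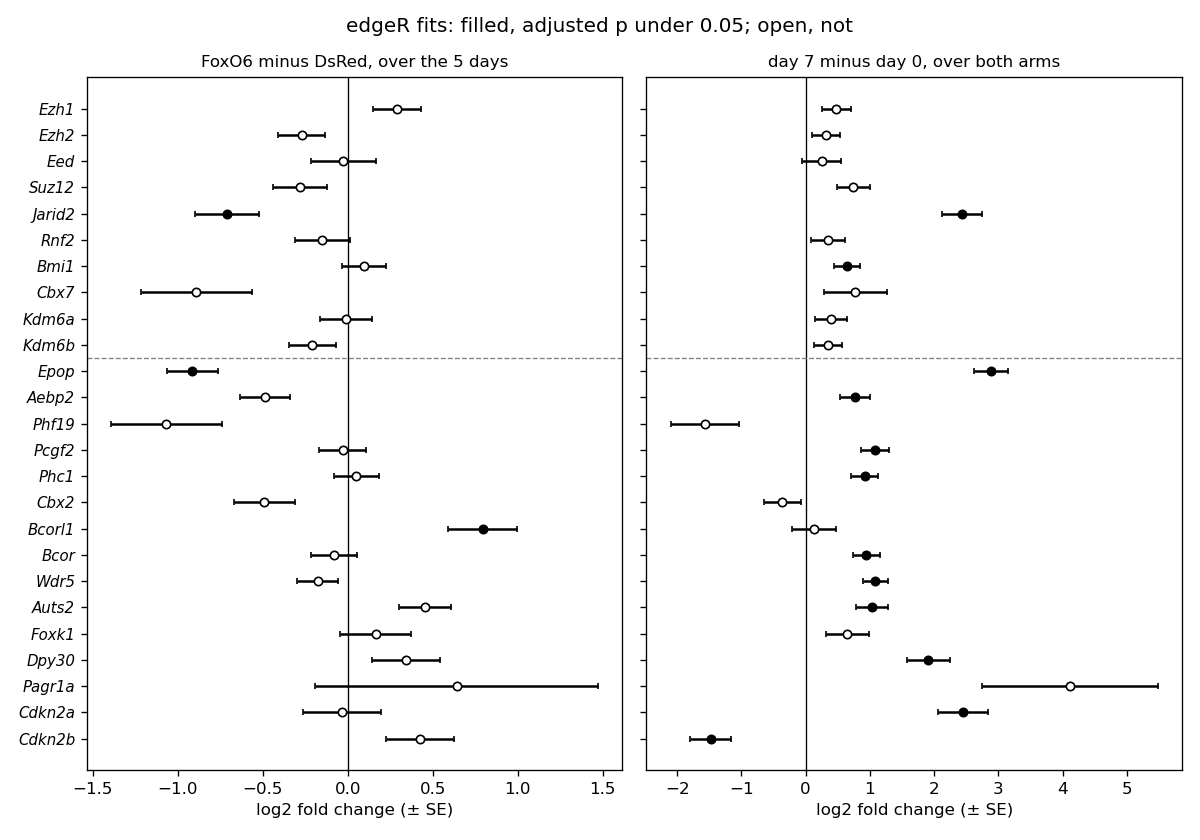
Fitted log2 fold change ± SE (horizontal axes) for the 10 members (above the dashed line) and the named genes of the wider lists (below it), for OKS + FoxO6 minus OKS + DsRed over the 5 days (left) and for day 7 minus day 0 over both arms (right). Filled points had an adjusted p under 0.05 (edgeR). Jarid2 and Epop are filled in both panels, to the left of 0 between the arms and to the right over time.

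The genes at the locus that PRC1 is best known to silence moved in opposite directions over time. Cdkn2a, which encodes p16 and p19Arf, went from 10 to 56 reads in OKS + DsRed and from 12 to 72 in OKS + FoxO6 between day 0 and day 7, a rise of 2.46 ± 0.39 (log2, SE, adjusted p = 0.0011, edgeR). The neighbouring Cdkn2b, which encodes p15, fell by -1.48 ± 0.32 (log2, SE, adjusted p = 0.0069, edgeR). The arms did not pass the test for either gene (-0.03 ± 0.23 and 0.42 ± 0.20, adjusted p = 0.950 and 0.196, edgeR).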

How the data were processed

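RNA of 10 libraries was processed by the authors with Bowtie2 and RSEM (versions not given in the sources used here) on mm10, and expected counts and TPM per gene were deposited for each library, with RSEM's effective length beside them. The deposited table of the whole series repeats the expected counts for 48476 of the 50600 genes, with no difference. The labels name a VAHTS library kit and the study's methods a TruSeq kit, and which was used cannot be told apart here. Groups came from the sample titles.

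Expected counts were rounded, filtered with filterByExpr (12212 genes kept, all 10 members among them) and fitted with edgeR 4.0.16 (TMM, quasi-likelihood F-test, R 4.3.3) with day as a factor and arm. The arm by day trend added the product of arm and day number. P-values were adjusted over all 12212 genes by Benjamini-Hochberg with a threshold of 0.05. The standard error is the fold change divided by the square root of F. Residual degrees of freedom were 4 (3 for the trend). Libraries of one arm on successive days stand in for replicates. Nothing says that they came from separate cultures, so p-values measure only the spread between these libraries, which may be technical. Daily differences used log2(TPM + 1) over genes with a mean of at least 1 TPM, with no test, and CPM ratios with exact (Clopper-Pearson, 95%) intervals. A fold in TPM + 1 understates the change of low genes. Reads carry no molecular identifiers.

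All 10 members are named. Of the wider lists, the genes that passed a test and the largest arm difference of each list are named. For Ezh2, the 3 genes most correlated with it are named. The members and lists were chosen with earlier results of these data known. Promoters were read from RefSeq sequences of GRCm38.p6. The code of the fits was run on simulated counts of independent libraries with large planted changes. That run does not test the fits on successive days of an arm or on small differences. Alternatives were other size factors (RLE), DESeq2 1.42.0, no filter, no day term, the rank of the day and leaving out each day. For daily values they were a pseudocount of 0.1, CPM, and filters at a mean of 5 TPM or at any TPM above 0. A fixed effective length and the raw count ratio were added after seeing the data.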

Additional observations from a re-analysis of the deposited data

How the results depend on the processing

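Each arm and day had 1 library, so values of a day cannot be told apart from the spread between cultures, and a member with few reads, such as Cbx7, gave wide intervals. The number of genes called between the arms, 810 higher and 841 lower, was 124 and 38 without the day term, and from 370 to 837 and from 335 to 841 when 1 day was left out, lowest without day 5. The call of 1 member lower, Jarid2, was 0 without the day term, and 0 to 1 when 1 day was left out. From day 0 to day 7, 2 members were called, but 1 with DESeq2, and 1 whenever day 1, 3 or 5 was left out. The trend called 121 genes rising and 75 falling, 329 and 319 without the filter, and 51 to 127 and 31 to 162 when 1 day was left out. With a mean of at least 5 TPM, which leaves 11491 genes, 1387, 1362, 1613, 1780 and 2220 genes were past 2-fold on days 0, 1, 3, 5 and 7. Members past 2-fold on day 0 were 2 with a pseudocount of 0.1 (22.9% of genes) and 0 with a fixed effective length (15.3%), and on day 3 they were 0 by CPM (15.8%) and 0 with the fixed length (18.4%). The day 3 difference of Cbx7, 1.04 in log2(TPM + 1), turned to -0.48 by CPM, -0.46 with a fixed length and -0.57 as a raw count ratio. Of 655 alternative values for named genes, 36 changed: 18 lost their call, 4 gained one, 11 moved by more than counting error, some of them across 0, and 3 turned a difference past 2-fold the other way, all of these for Cbx7 on day 3.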
